A study of Homo sapiens with 4 samples.

Results

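The genes described here are 10 NF-kB genes chosen by name from 20090 protein-coding genes. They are 2 feedback inhibitors (NFKBIA and TNFAIP3), 4 subunits (NFKB1, NFKB2, RELA and RELB), 1 survival target (BIRC3) and 3 cytokine genes (CXCL8, IL6 and CCL2). All data came from the Ewing sarcoma cell line SK-N-MC, whose driver is a fusion of EWSR1 with FLI1, and the labels name no treatment. Chromatin was immunoprecipitated with antibodies to FLI1, to SSRP1 (a subunit of the histone chaperone FACT) and to H3K27ac, a histone mark of active promoters and enhancers. There was 1 library per target and 1 input library, and the labels do not say whether the FLI1 antibody read the fusion or FLI1 itself. The deposited lists held 36305 FLI1, 19855 SSRP1 and 37195 H3K27ac peaks on chromosomes 1 to 22 and X (hg19), with no peak height. With 1 library per target there was no replicate check and no test across samples. Peaks of all 3 lists lay within 2.5 kb of a transcription start site (TSS) at 6 of 6 Ewing sarcoma markers (NR0B1, NKX2-2, STEAP1, PRKCB, CAV1 and CCND1). Of 11 T cell, B cell, myeloid, endothelial and liver markers, 10 had no peak of any list there. Over all protein-coding genes, 17.3% had peaks of all 3 lists there and 34.7% had none.

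NF-kB is a family of transcription factors that, in resting cells, is held in the cytoplasm by inhibitors of the IkB family. Signals from cytokine and Toll-like receptors activate kinases that mark the inhibitor for destruction, and the freed dimers enter the nucleus. Among the genes they then activate are their own inhibitors, which end the response, several of their own subunits, survival genes, and genes of secreted cytokines and chemokines. A target promoter can therefore carry NF-kB sites whether or not it is active in a given cell line.

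The NF-kB sites of the promoters are shown first, since the peaks are placed against them. An NF-kB consensus match occurred in 8 of the 10 promoters (80.0%), against 12.6% of all protein-coding promoters, where a promoter is the stretch from 250 bp upstream to 50 bp downstream of the canonical TSS. The consensus was GGGRNNYYCC on either strand, where R is A or G, Y is C or T and N is any base. Another form, GGG and TTTCC set 2 bases apart on either strand, occurred in 7 of 10 (70.0%), against 1.99% of all promoters. It fixes more bases but leaves the base after GGG free, so it is not a subset of the consensus. NF-kB targets are known partly by such sites, so these counts describe the genes and are not a result of the libraries. The matches were read from hg19 (GRCh37) on the strand of the gene, and 1 per gene, or both at TNFAIP3, is given with its neighbouring bases, the match in capitals. Where the match lies on the opposite strand, as at NFKBIA, TNFAIP3, BIRC3 and CCL2, it reads as the reverse complement of the consensus.
NFKBIA, chr14:35874017-35874046: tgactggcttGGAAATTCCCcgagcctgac
TNFAIP3, chr6:138188319-138188348: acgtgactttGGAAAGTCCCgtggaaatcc
TNFAIP3, chr6:138188331-138188360: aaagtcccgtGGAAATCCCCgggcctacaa
NFKB1, chr4:103422457-103422486: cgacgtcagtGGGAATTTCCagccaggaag
NFKB2, chr10:104155431-104155460: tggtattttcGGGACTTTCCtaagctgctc
RELB, chr19:45504581-45504610: gtgacgcgtgGGGGTTTTCCcgttccccag
BIRC3, chr11:102188006-102188035: tttgggtcatGGAAATCCCCgagtgggttt
IL6, chr7:22766736-22766765: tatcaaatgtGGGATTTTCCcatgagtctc
CCL2, chr17:32582210-32582239: tatcactcatGGAAGATCCCtcctcctgct
NFKBIA is on the minus strand of its chromosome and the other 7 genes are on the plus strand. In this window RELA and CXCL8 held no run of letters that fits the consensus. At NFKB2, RELB and BIRC3 a further match lay 176, 59 and 135 bp upstream of the TSS.

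Each list had a peak within 2.5 kb of a TSS at 5 of the 10 genes, though not at the same 5. FLI1 lay at NFKBIA, NFKB1, NFKB2, RELA and IL6, against 29.0% of all protein-coding genes. SSRP1 lay at NFKBIA, TNFAIP3, NFKB1, RELA and IL6, against 35.8% of all genes. H3K27ac lay at NFKBIA, TNFAIP3, NFKB1, RELA and RELB, which is a share of 50.0% against 57.9% of all genes. All 3 marks met at NFKBIA, NFKB1 and RELA, or 3 of 10, against 17.3% of all genes. BIRC3, CXCL8 and CCL2 had none of the 3, as did 34.7% of all genes.

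Subunit and inhibitor genes differed from cytokine genes mainly in H3K27ac. At a TSS, H3K27ac lay at 5 of 6 subunit and inhibitor genes and at 0 of 3 cytokine genes. Over the gene body it lay at 6 of 6 and 0 of 3, where 61.4% of all genes had it. With only peaks at or above the median width, both contrasts became 3 of 6 (NFKBIA, NFKB1 and RELA) against 0 of 3. With 50 kb added on each side it lay again at 6 of 6 and 0 of 3, against 80.7% of all genes. With only the wider peaks this became 5 of 6, without TNFAIP3, against 0 of 3. The percentages of all genes in this paragraph count peaks of any width, so they are no match for the counts of wider peaks. No H3K27ac peak within 50 kb was a property of 19.3% of all genes. FLI1 and SSRP1 each lay at a TSS of 4 of 6 subunit and inhibitor genes and 1 of 3 cytokine genes. Over the gene body, FLI1 lay at 5 of 6 and 1 of 3, against 44.4% of all genes, and SSRP1 at 4 of 6 and 1 of 3, against 40.4%. Within 50 kb, FLI1 lay near 5 of 6 subunit and inhibitor genes and 2 of 3 cytokine genes, against 77.3% of all genes, and SSRP1 near 6 of 6 and 1 of 3, against 67.2%. At NFKB2 and RELB those SSRP1 peaks lay past the 3′ end of the gene and nearer to the TSSs of C10orf95 and ZNF296. Genes are not replicates and these are 6 genes against 3 in 1 library per target, so no test was made.

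**Figure D1:**
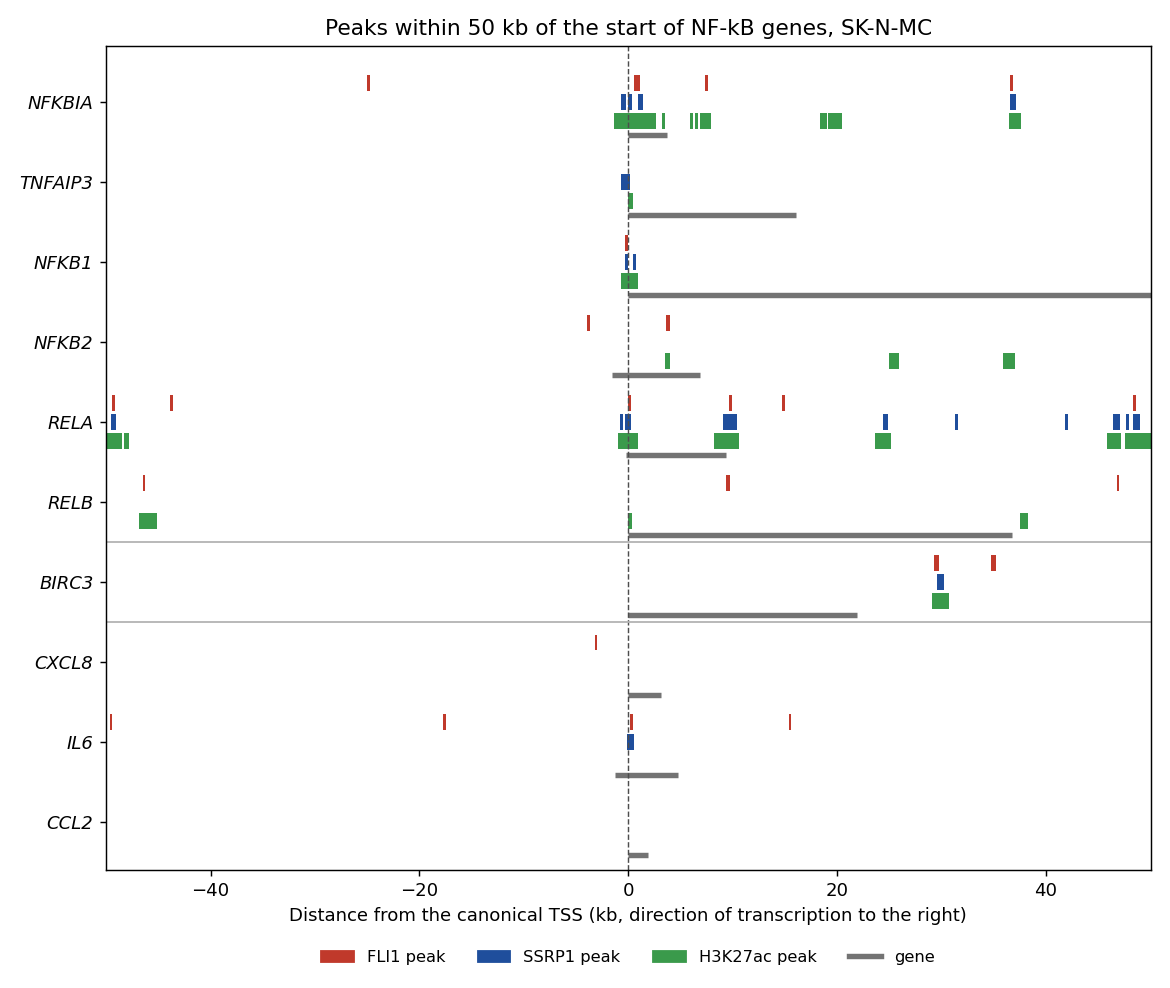
Peaks of FLI1 (red), SSRP1 (blue) and H3K27ac (green) by distance in kb from the canonical TSS of each gene, with the gene as a grey bar and transcription to the right; the narrowest peaks are widened so that they can be seen. Grey lines set off the 6 subunit and inhibitor genes at the top, BIRC3, and the 3 cytokine genes at the bottom, which have no green bar.

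NFKBIA, the gene of the inhibitor IkBα, had more peaks of all 3 marks within 50 kb than TNFAIP3, the other feedback inhibitor gene among the members. It lies on chromosome 14 (35870285 to 35873955, minus strand) and had 4 FLI1, 4 SSRP1 and 8 H3K27ac peaks within 50 kb, all nearer to its own TSSs than to those of any other protein-coding gene. An H3K27ac peak of 3940 bp ran from 1331 bp upstream to 2608 bp downstream of the TSS and was wider than 97.7% of its list. Inside it lay 3 SSRP1 peaks: 700 to 179 bp upstream, from 5 bp upstream to 307 bp downstream, and 956 to 1455 bp downstream. The NF-kB match shown above, 81 to 72 bp upstream, fell into the gap between the upstream SSRP1 peak and the one over the TSS. Outside the promoter window, both of these SSRP1 peaks held 1 further consensus match each, as did the FLI1 peak at the TSS. The FLI1 peak of 564 bp began 587 bp into the gene, had its midpoint in an intron, was wider than 92.0% of FLI1 peaks and was shared with the downstream SSRP1 peak. A further site with all 3 marks lay downstream of the gene, 36.6 kb from the TSS, where FLI1 (227 bp) and SSRP1 (511 bp) sat in 1161 bp of H3K27ac.

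TNFAIP3 encodes A20, a ubiquitin-editing enzyme that shuts off signalling upstream of the IkB kinases. The gene lies on chromosome 6 (138188351 to 138204451, plus strand) and had a single peak of SSRP1 and of H3K27ac within 50 kb, both at the TSS, and no FLI1 peak. SSRP1 and H3K27ac without FLI1 at a TSS occurred at 14.3% of all genes. The SSRP1 peak of 848 bp ran from 719 bp upstream to 128 bp downstream and was wider than 89.2% of its list. It covered both NF-kB matches, at 67 and 55 bp upstream. The H3K27ac peak was only 498 bp wide and began 34 bp upstream, downstream of both matches. The next SSRP1 peaks were 636 kb upstream and 294 kb downstream, and the nearest FLI1 peak was 88.0 kb away.

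Of the subunit genes, NFKB1 and RELA had all 3 marks over the promoter. NFKB1, which encodes p105, the precursor of p50, lies on chromosome 4 (103422487 to 103538459, plus strand). Its FLI1 peak (302 bp) and one of its SSRP1 peaks (282 bp) covered nearly the same stretch, beginning 326 and 327 bp upstream of the TSS and ending 25 and 46 bp upstream. The NF-kB match at 49 to 40 bp upstream lay inside the FLI1 peak, and the SSRP1 peak ended within it. Both sat in 1687 bp of H3K27ac, the one acetylated peak within 50 kb of the gene. A second SSRP1 peak of 339 bp lay 438 to 776 bp downstream. Another pair, FLI1 of 428 bp and SSRP1 of 498 bp, lay past the 3′ end of the gene, 123 kb from the TSS, without H3K27ac.

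RELA encodes p65, the main transactivating subunit, and lies on chromosome 11 (65421070 to 65430561, minus strand). FLI1 (311 bp) and SSRP1 (544 bp) overlapped across the TSS, and a second SSRP1 peak of 285 bp lay 769 to 485 bp upstream, all within 1963 bp of H3K27ac. At the 3′ end of the gene an SSRP1 peak of 1420 bp, wider than 97.6% of its list, overlapped a 313 bp FLI1 peak within 2386 bp of H3K27ac. RELA had the most peaks within 50 kb, with 6 FLI1, 12 SSRP1 and 11 H3K27ac, but only 7 of these 29 had a RELA TSS as the nearest. The rest were nearer to MAP3K11, PCNX3, SIPA1 or KAT5. Per Mb, the 10 Mb around RELA had 38.2 peaks of FLI1, 40.3 of SSRP1 and 53.6 of H3K27ac, against 11.7, 8.54 and 14.3 over all of chromosome 11.

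NFKB2 and RELB, which encode p100 (the precursor of p52) and RelB of the non-canonical pathway, had a single mark each at the TSS. NFKB2 lies on chromosome 10 (104153867 to 104162281, plus strand), where only 5.26% of genes had FLI1 and 14.2% had SSRP1 at a TSS. Its 237 bp FLI1 peak lay 2118 bp from the nearest TSS, close to the edge of the window, and met neither other list, a state at the TSS shared with 3.36% of all genes. Its acetylation was intragenic: a 489 bp H3K27ac peak began 3495 bp downstream of the canonical TSS, just beyond the window, and overlapped a FLI1 peak of 412 bp with its midpoint in an intron. No SSRP1 peak lay nearer than 55.2 kb to the canonical TSS. At RELB, on chromosome 19 (45504719 to 45541450, plus strand), H3K27ac was alone at the TSS, as at 19.2% of all genes, with a peak of 377 bp that began 24 bp upstream, downstream of both NF-kB matches. A FLI1 peak of 306 bp lay in an intron 9.4 kb into the gene, and the nearest SSRP1 peak to the canonical TSS was 70.0 kb away.

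BIRC3 encodes cIAP2, a ubiquitin ligase that protects cells from TNF-induced death and a standard NF-kB target. It lies on chromosome 11 (102188215 to 102210134, plus strand) and had no peak of any list at a TSS or over the gene. The 4 peaks within 50 kb lay beyond its 3′ end, and the nearest TSS to each was that of BIRC2, the neighbouring paralogue. There FLI1 (501 bp) and SSRP1 (661 bp) overlapped within 1568 bp of H3K27ac, across a BIRC2 TSS. The pair of paralogues thus stood apart at the TSS, with 0 marks at BIRC3 and all 3 at BIRC2.

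**Figure D2:**
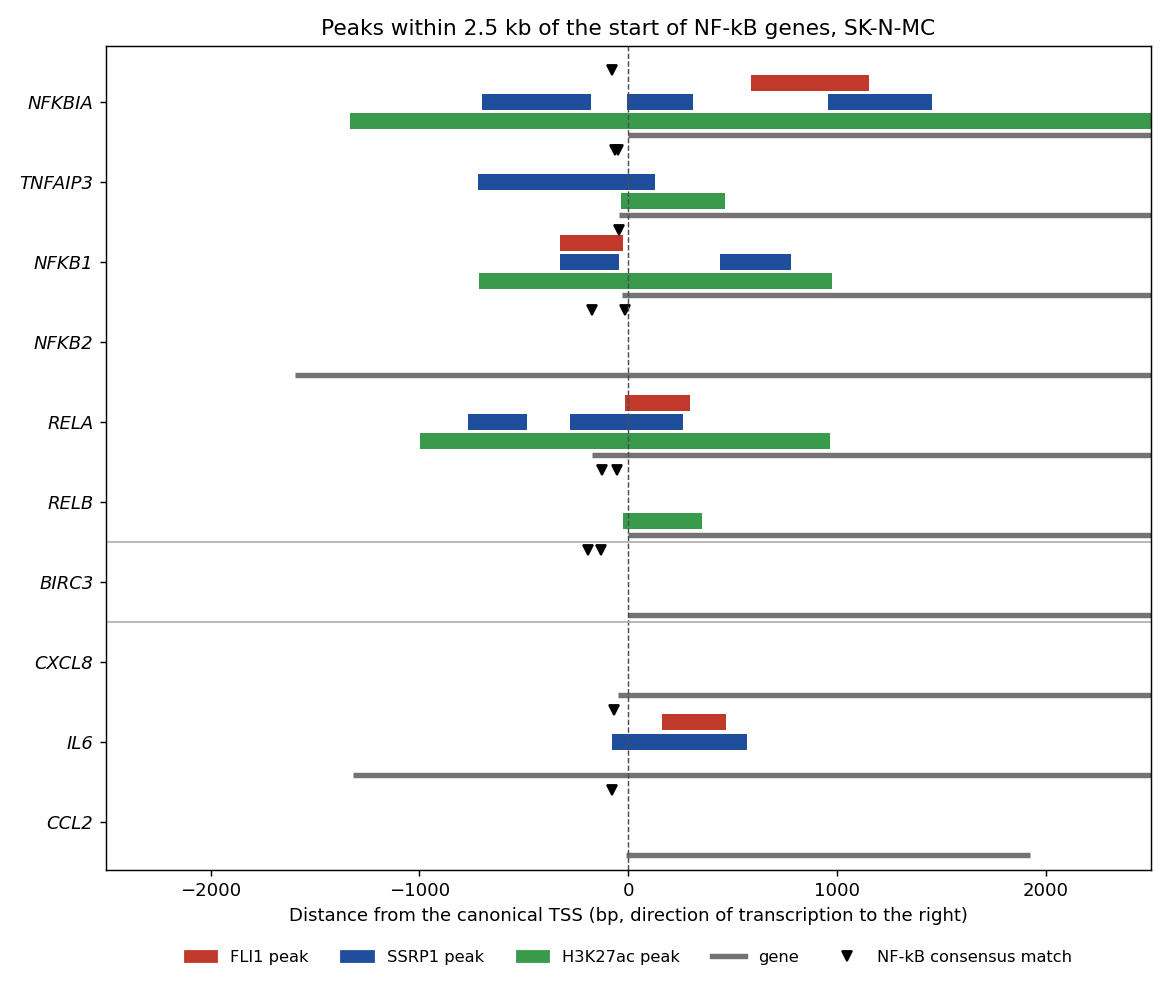
Peaks within 2.5 kb of the canonical TSS, by distance in bp, with NF-kB consensus matches of the promoter window as black triangles and the gene as a grey bar. The triangles of TNFAIP3 and IL6 lie over blue SSRP1 bars, that of NFKBIA lies between 2 blue bars, and those of NFKB2, RELB, BIRC3 and CCL2 lie over no bar.

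IL6, the gene of interleukin-6, was the one cytokine gene with peaks at the TSS, and no H3K27ac peak met them. The gene lies on chromosome 7 (22765503 to 22771621, plus strand). An SSRP1 peak of 647 bp ran from 77 bp upstream to 569 bp downstream of the canonical TSS and was wider than 79.9% of its list. Its upstream edge took in the NF-kB match at 73 to 64 bp upstream. A FLI1 peak of 309 bp, 161 to 469 bp downstream, lay wholly inside it, with its midpoint in a coding exon. The nearest H3K27ac peaks were 216 kb upstream and 74.8 kb downstream, and the next SSRP1 peaks 1299 kb upstream and 109 kb downstream. FLI1 and SSRP1 at a TSS with no H3K27ac within 50 kb occurred at 78 of 20090 genes (0.388%), of which IL6 was 1. The other 3 FLI1 peaks within 50 kb of IL6 were narrow, at 227, 227 and 249 bp, and met no other list.

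CXCL8 and CCL2, the genes of the neutrophil chemokine interleukin-8 and of a monocyte chemokine, lay in long stretches without peaks. CXCL8 is on chromosome 4 (74606236 to 74609433, plus strand), and the nearest H3K27ac peaks were 481 kb upstream and 417 kb downstream. Its only peak within 50 kb was a FLI1 peak of 227 bp, the smallest width in that list, 2931 bp from a TSS and so just outside the window. The cluster from CXCL8 to CXCL2 spans 359 kb with 6 CXCL genes of the lists used here and held 0 FLI1 peaks, 0 H3K27ac peaks and 1 SSRP1 peak, at CXCL2. CCL2 is on chromosome 17 (32582293 to 32584227, plus strand) and had no peak of any list within 50 kb, as did 9.74% of all genes. The nearest peaks were 361 kb away for FLI1, 505 kb for SSRP1 and 706 kb for H3K27ac. The 10 Mb around CCL2 were not empty, with 25.3 FLI1, 12.9 SSRP1 and 18.6 H3K27ac peaks per Mb. The neighbouring 108 kb that hold CCL2, CCL7, CCL11, CCL8, CCL13 and CCL1 had 0 peaks of each list.

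Coverage by peaks, counted within 50 kb of the canonical TSS, spread widely among the subunit and inhibitor genes. H3K27ac covered 11560 bp at RELA, 9050 bp at NFKBIA, 2920 bp at RELB, 2543 bp at NFKB2, 1687 bp at NFKB1 and 498 bp at TNFAIP3, with a median of 2732 bp, while it covered 0 bp at all 3 cytokine genes. The median over all protein-coding genes was 1929 bp, so TNFAIP3 and NFKB1 lay below it, at more bases than 27.3% and 46.3% of genes. BIRC3 had 1568 bp, all of it at BIRC2. Most of the coverage of RELA, and of NFKB2 and RELB, the genes next to that group median, also lay nearer to other genes. For RELA, H3K27ac peaks of 2386 and 1963 bp had its own TSS as the nearest, and the rest were at MAP3K11, PCNX3, SIPA1 and KAT5. For NFKB2, 489 bp had its own TSS as the nearest, and peaks of 960 and 1094 bp were at FBXL15 and CUEDC2. For RELB, 377 bp had its own TSS as the nearest, and peaks of 1758 and 785 bp were at CLPTM1 and CLASRP. SSRP1 covered 5539 bp at RELA and 1846 bp at NFKBIA, and 0 bp at NFKB2, RELB, CXCL8 and CCL2. Of the SSRP1 peaks around RELA, only those of 1420, 544 and 285 bp had a RELA TSS as the nearest. FLI1 covered between 0 bp at TNFAIP3 and 1625 bp at RELA among subunit and inhibitor genes, and 1012 bp at IL6, 227 bp at CXCL8 and 0 bp at CCL2 among cytokine genes. In this window the groups therefore overlapped in FLI1 and SSRP1 coverage and did not overlap in H3K27ac coverage. The smallest H3K27ac value among subunit and inhibitor genes, 498 bp, was a single narrow peak at TNFAIP3. Without peaks below the median width TNFAIP3 had no H3K27ac there, like the cytokine genes. The lower quartile over all protein-coding genes was 330 bp.

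**Figure D3:**
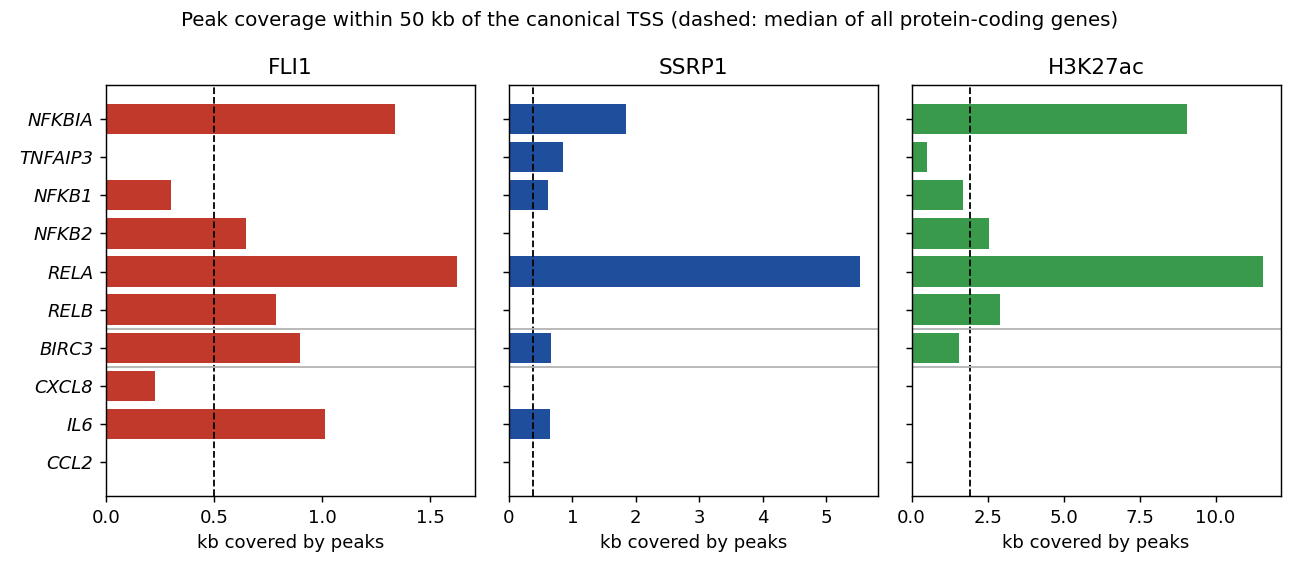
Length covered by peaks of each list within 50 kb of the canonical TSS, in kb, 1 bar per gene, with the median of 20090 protein-coding genes as a dashed line; each panel has its own scale. H3K27ac reaches 11560 bp at RELA, most of it nearer to the TSSs of other genes, and is absent at CXCL8, IL6 and CCL2.

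FLI1 and SSRP1 shared ground at 4 of the 5 genes with FLI1 at a TSS. Of the 5 FLI1 peaks at a TSS, 4 were shared with an SSRP1 peak, meaning that at least 20% of either peak was covered, and NFKB2 held the exception. Over all protein-coding genes, 44.7% of 6616 FLI1 peaks at a TSS were shared with SSRP1, and 64.1% of the 5832 genes with FLI1 at a TSS also had SSRP1 at one. With 5 peaks, 4 is not set apart from those shares. Of all 24 FLI1 peaks within 50 kb of the genes, 10 (41.7%) were shared with SSRP1, against 19.0% of the FLI1 peaks within 50 kb of any protein-coding gene. RELA and its neighbours gave 4 of the 10, and without RELA the count was 6 of 18 (33.3%). SSRP1 peaks numbered 24 as well, of which 19 (79.2%) were shared with H3K27ac, against 61.5% of the SSRP1 peaks within 50 kb of any protein-coding gene. RELA and its neighbours alone gave 12 of those 24 SSRP1 peaks. The FLI1 peaks included 7 at the list's smallest width of 227 bp, and none of these 7 lay at a TSS. The SSRP1 peaks included 2 at that list's smallest width of 282 bp. Of these, 1 lay at a TSS, that of NFKB1, and is among the shared peaks.

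The FLI1 peaks at these promoters were searched for the motifs best known for the fusion, which most FLI1 peaks at a TSS also lacked. An ETS core (CCGGAAG or CCGGAAA, either strand) occurred in 0 of the 5, against 24.8% of all FLI1 peaks at a TSS, and a run of at least 4 GGAA in 0 of 5, against 0.877%, so that 0 of 5 does not set these peaks apart. Within 50 kb, 2 of 24 FLI1 peaks held the ETS core, at the TSSs of BIRC2 and KAT5, against 8.56% of the FLI1 list, and 0 of 24 held a run. Single GGAA or TTCC tetramers, the shortest part of an ETS site, were present in all 5, from 2 in the IL6 peak to 11 in the NFKBIA peak, with a median of 5. Such short letters are common: 93.9% of all FLI1 peaks at a TSS held at least 1, with a median of 4. TTCC also lies inside many NF-kB matches, so the counts are not independent of those sites. The stretches below come from hg19 on the strand of the gene, leave out annotated untranslated regions and show GGAA and TTCC in capitals. They are from the FLI1 peaks of NFKBIA, NFKB1 and IL6. The stretch taken likewise from the RELA peak, 39 bases long, held no GGAA or TTCC and is not shown. The whole RELA peak held 4.
NFKBIA, chr14:35872805-35872961: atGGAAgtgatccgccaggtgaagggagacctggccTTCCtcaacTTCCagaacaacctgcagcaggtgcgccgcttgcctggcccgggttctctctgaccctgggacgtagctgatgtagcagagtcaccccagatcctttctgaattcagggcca
NFKB1, chr4:103422238-103422437: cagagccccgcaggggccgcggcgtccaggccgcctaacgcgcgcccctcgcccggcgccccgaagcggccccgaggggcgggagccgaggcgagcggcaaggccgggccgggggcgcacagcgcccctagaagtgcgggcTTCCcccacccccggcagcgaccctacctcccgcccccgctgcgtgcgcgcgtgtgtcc
IL6, chr7:22767034-22767233: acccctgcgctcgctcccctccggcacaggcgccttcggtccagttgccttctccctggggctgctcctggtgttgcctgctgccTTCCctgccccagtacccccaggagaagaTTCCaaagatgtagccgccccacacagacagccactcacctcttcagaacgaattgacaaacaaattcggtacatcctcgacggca
NFKBIA is on the minus strand, and NFKB1 and IL6 are on the plus strand. Of the 12 distinct consensus matches in the promoters of the 8 genes, 1 lay under a FLI1 peak, 4 under or at the edge of an SSRP1 peak and 2 under an H3K27ac peak. Over all protein-coding promoters, 12.7% of 3070 matches met a FLI1 peak, 18.0% an SSRP1 peak and 47.1% an H3K27ac peak. Whole peaks reach beyond that window. At a TSS of the members, the consensus occurred in 3 of 5 FLI1, 6 of 9 SSRP1 and 3 of 6 H3K27ac peaks. The shares of all peaks at a TSS were 21.8%, 32.4% and 42.5%. At RELA, the FLI1 peak held 1 match. These genes are known partly by such sites, so the counts describe them.

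The rest of the pathway was read from a list of 76 further genes in 8 classes. Over the whole list FLI1 lay at a TSS of 31 genes (40.8%, 95% Clopper-Pearson interval 29.6 to 52.7), SSRP1 at 29 (38.2%, 27.2 to 50.0) and H3K27ac at 45 (59.2%, 47.3 to 70.4), where all protein-coding genes had 29.0%, 35.8% and 57.9%. All 3 marks met at 21 of the 76 (27.6%) and 24 had none (31.6%), against 17.3% and 34.7% of all genes. The shares with SSRP1, with H3K27ac and with no mark were near those of all genes. Genes are not replicates and some of the 76 are neighbours, so the intervals, that of FLI1 included, give no test against all genes. The pattern of FLI1 and SSRP1 without H3K27ac, seen at IL6, occurred at 0 of the 76 genes and at 1.28% of all genes.

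Classes differed most in H3K27ac, which 57.9% of all genes had at a TSS. It lay at 6 of 6 other subunit and IkB genes, 9 of 10 genes of the kinase class, 13 of 15 adaptor and ubiquitin enzyme genes and 5 of 6 ubiquitin-editing inhibitor genes. The kinase class also holds genes of partner proteins that are not kinases: IKBKG, TAB1, TAB2 and TAB3. In the kinase class, IKBKB, MAP3K14, TBK1 and TAB2 carried all 3 marks, and CHUK, which encodes the partner of the IKBKB kinase, carried H3K27ac alone. CHUK lies on chromosome 10, where 5.26% of genes had FLI1, 14.2% had SSRP1 and 54.7% had H3K27ac at a TSS. NFKBIB and BCL3 of the IkB family carried all 3, and REL, the remaining subunit gene, H3K27ac alone. Among the adaptors and ubiquitin enzymes all 3 lay at TRAF3, RIPK1, BIRC2, RNF31, SHARPIN and UBE2N, whereas TRAF1 had no mark. CYLD was the ubiquitin-editing inhibitor gene with no mark. Survival and stress targets had FLI1 and SSRP1 at 5 of 7 each and H3K27ac at 6 of 7, with all 3 at BCL2L1, CFLAR, GADD45B, IER3 and SOD2. Over all genes, 29.0% had FLI1 at a TSS, 35.8% had SSRP1 and 17.3% had all 3.

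Receptors and secreted factors mostly had no mark at a TSS. H3K27ac lay there at 1 of 9 receptor genes, TNFRSF1A, and at 1 of 15 further cytokine and ligand genes, LTB. No mark at all lay at 6 receptor genes, among them TLR4 and IL1R1, and at 12 of the 15 cytokine and ligand genes, among them IL1B, CXCL1 and CCL20, against 34.7% of all genes. Further out, 10 of these 24 genes (41.7%) had an H3K27ac peak within 50 kb, against 80.7% of all genes, and LTBR, which had no mark at a TSS, had 5. TNF had FLI1 alone and CXCL2 had SSRP1 alone. TNF and LTB lie in a gene-dense region of chromosome 6, and 14 H3K27ac peaks lay within 50 kb of TNF without one at its TSS. Adhesion, matrix and other targets were mixed: ICAM1 and SELE had no mark, VCAM1 had H3K27ac alone, PLAU and MMP9 had FLI1 alone, and IRF1 and JUNB had all 3.

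**Figure D4:**
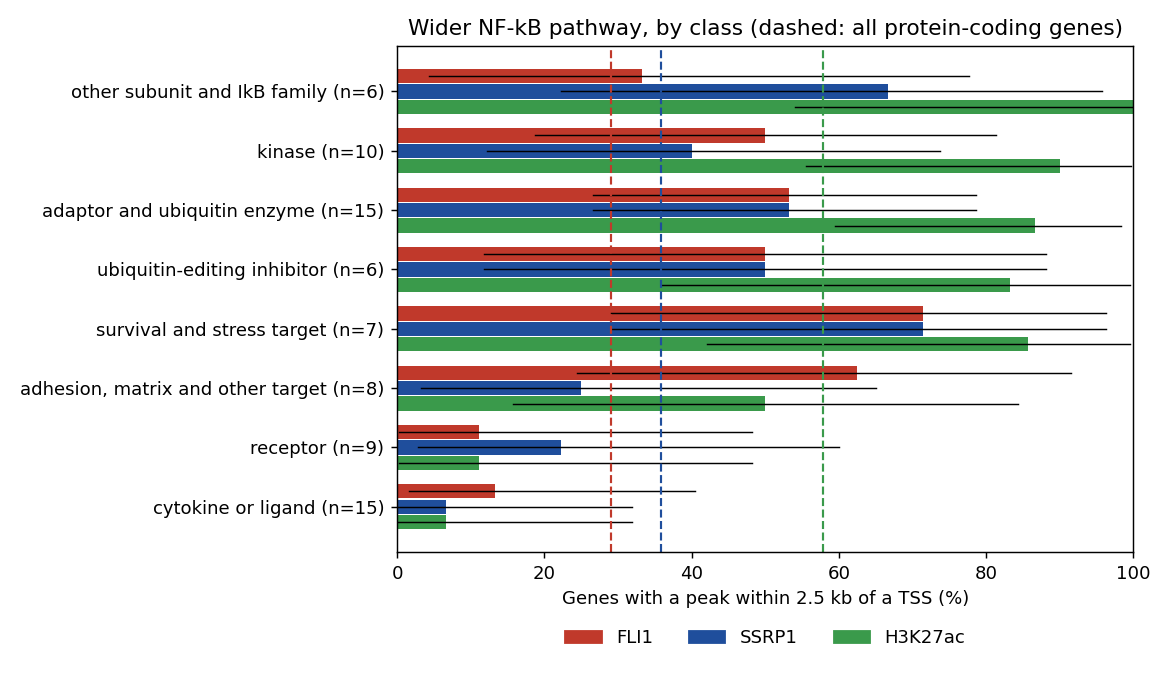
Percentage of genes in each class of the wider pathway list with a FLI1 (red), SSRP1 (blue) or H3K27ac (green) peak within 2.5 kb of a TSS; black lines are 95% Clopper-Pearson intervals, which cover counting error only, and dashed lines are all protein-coding genes. H3K27ac is at 6 of 6 subunit and IkB genes at the top and 1 of 15 cytokine or ligand genes at the bottom.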

How the data were processed

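FLI1, SSRP1 and H3K27ac were mapped in SK-N-MC chromatin by ChIP-seq, grouped by sample title, with 1 library each and 1 input. Micrococcal nuclease and sonication were used to cut it, per the design text; reads were aligned to hg19 with Bowtie2, and the authors called peaks against input at a q-value of 0.05 with MACS2 (2.2.7.1 per the submitters' processing notes), in each library separately. Nuclease cutting enriches nucleosome-sized fragments, which can shift where short peaks fall at a promoter. Whether duplicate or multiply mapped reads were filtered is not stated there. The deposited lists hold peak intervals without heights, so read depth is unknown and peak strength was not compared. Lines repeating an interval were counted once.

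Genes and TSSs came from GENCODE release 44 on GRCh37 (basic transcripts, distinct symbols), whose chromosome lengths fit the lists. A gene had a mark when a peak met a window. Motifs were searched on both strands. The counting functions were tested on simulated data. Named genes were the 10 members, the wider list by class, and nearest neighbours. Some values are not reported here. Members and lists were chosen with earlier results of these data known. Python 3.11.15, pandas 2.3.3, pysam 0.24.0 and samtools 1.23.1 were used.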

Additional observations from a re-analysis of the deposited data

How the results depend on the processing

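Of 44 comparisons of a count or coverage with an alternative, 40 stayed within 1.5 times the value given. Only wider peaks (at or above the median width of each list, in place of a stricter threshold, since the lists give no strength) left H3K27ac at 3 genes at a TSS and at 3 over the gene, because the narrow peaks of TNFAIP3, RELB and, inside the gene, NFKB2 dropped out. The difference in median H3K27ac coverage between subunit and inhibitor genes and cytokine genes, 2732 bp, was 1092 bp with a window of 20 kb and 6302 bp with 100 kb. NFKB2 lost FLI1 with a TSS window of 1 kb or with canonical TSSs and gained H3K27ac with 5 kb, and CXCL8 gained FLI1 with 5 kb. With only wider peaks NFKB2 lost FLI1 and NFKB1 lost SSRP1, which left all 3 marks at 2 genes, NFKBIA and RELA, in place of 3. A threshold on peak strength was not run. No paired analysis was possible because each target has 1 library. Intervals cover counting error only. An absent peak says that none was called at the depth of these libraries, which is unknown, and not that the protein or mark was absent. Copy number was not analysed here.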
